A study of Mus musculus with 8 samples.

Results

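The mRNAs of 10 genes that keep chromatin compact and retroelements silent were followed through the neural differentiation of mouse embryonic stem (ES) cells, both in total RNA and in the RNA bound to Argonaute (Ago) proteins. The genes were Trim28, Setdb1, Ehmt1, Ehmt2, Suv39h1, Suv39h2, Atrx, Daxx, Cbx3 and Cbx5. They were chosen by gene name, and every non-control probe annotated with one of these names was read on its own, which gave 17 of the 55681 probes on the array for 10 of its 36163 gene names. Of these, 16 probes lay in sense exons of their gene, 1 probe for 5 of the genes, 2 probes for 4 genes and 3 probes for Atrx. The remaining probe carried the Trim28 name but lay outside the Trim28 mRNA and is described apart.

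Cells of the E14Tg2A line, derived from 129/Ola mice and not modified further for these arrays, were used at all stages. The first of the 4 stages was undifferentiated ES cells at 0 days in vitro (DIV), kept with serum and LIF. The others were epiblast-like aggregates (ELA) at 2 DIV, neural progenitor cells (NPC) at 6 DIV and neural precursors with early neurons (NPC/Neu) at 10 DIV. ELA and NPC were grown in a chemically defined minimal medium with N2 and B27 supplements. For NPC/Neu this medium was used without B27 from 6 to 10 DIV. At each stage 1 one-color Agilent array was hybridized with RNA precipitated by an antibody against all Ago proteins from the cytosolic fraction, and 1 array with total RNA, each holding RNA pooled from 3 independent experiments. There were thus 8 arrays with 1 array per condition, so no value has a replicate and no test between conditions can be made. The results describe 1 cell line, and RNA from a precipitation without the Ago antibody was not used here.

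Methylation of histone H3 on lysine 9 (H3K9) marks silent chromatin. TRIM28, also called KAP1, is a scaffold that KRAB zinc finger proteins bring to retroelements, where it recruits SETDB1, an enzyme that trimethylates H3K9. EHMT1 (GLP) and EHMT2 (G9a) work as a pair that places mono- and dimethylation, and SUV39H1 and SUV39H2 place trimethylation at pericentric repeats. ATRX, a chromatin remodeler, and DAXX, a histone chaperone, together deposit a replacement form of histone H3 at repeats and telomeres. CBX3 and CBX5 are heterochromatin protein 1 (HP1) gamma and alpha, which bind methylated H3K9. ES cells rely on this machinery to keep endogenous retroviruses silent. Ago proteins are the core of the RNA-induced silencing complex, in which a miRNA guides Ago to an mRNA and represses it.

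On all 8 arrays the 16 exon probes were well above background, and at all 4 stages their Ago–RNA signal lay above the binding threshold T1 of 7.82 (log2), the mean plus 3 SD of the dimmer population of spots on the Ago–RNA arrays. Enrichment, E, is the log2 Ago–RNA signal minus the log2 total RNA signal of the same probe and stage, and ΔE is E at the later stage minus E at the earlier one. A value of 1 or more in size, which is a doubling or halving, is called here. The only error that could be measured was that between spots of a probe printed 10 times on the array. The SD of E between such spots was 0.07 to 0.09, and that of ΔE was 0.11 to 0.12, over 237 probes above T1. This spread leaves out the variation between cultures and precipitations. Stages whose E differed by less than 0.24, which is 2 times the largest spot SD of ΔE, are not ordered below.

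The ES Ago–RNA array was the brightest, with an upper quartile of the mean spot signal of 2536 against 922 to 1501 on the other 7 arrays. Spots well above background made up 53.4% to 61.2% of each array and 0 spots were saturated. Total RNA of most stage markers changed with the labeled stages. Of 5 ES markers, 4 fell past the limit from ES to ELA, 2 of 4 primed epiblast markers rose, 3 of 4 neural progenitor markers rose from ELA to NPC, and all 3 measured neuron markers rose from NPC to NPC/Neu. Markers of other cells and stages moved too. All 3 mesenchyme markers rose from ELA to NPC, as did the mesendoderm gene T, from a log2 total RNA of 7.19 to 9.73. The trophoblast gene Cdx2 rose from 6.63, not well above background, to 9.29 over this step and was at 6.88 in NPC/Neu. From NPC to NPC/Neu 2 of 5 ES markers rose again, Esrrb from 9.59 to 11.55 and Zfp42 from 8.71 to 9.76. The mesendoderm gene Eomes rose with them, from 8.69 to 11.33. In bulk samples such as these, fewer cells of a type and less RNA per cell cannot be told apart, and the part of cell composition in the values below was not tested.

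In ES cells the mRNAs of Trim28, Setdb1, Daxx, Ehmt2, Ehmt1, Atrx and Suv39h2 were enriched in Ago–RNA, with E of 1 or more on at least 1 probe of 7 of the 10 genes. In ELA this enrichment had fallen for 6 of these 7, while total RNA of the same probes hardly moved. From ELA to NPC/Neu E rose again by 0.5 or more for Trim28, Setdb1, Ehmt2, Daxx, 1 probe of Ehmt1 and 1 of Atrx. Suv39h1, both probes of Cbx5 and 1 probe of Cbx3 went the other way, with a higher E in ELA than in ES cells. As counts, 9 of the 16 exon probes had E of 1 or more in ES cells, against 15.4% of the 24442 probes above T1. In ELA 2 of 16 did, against 6.13%, in NPC 1 of 16 against 7.81%, and in NPC/Neu 5 of 16 against 16.5%. The median E of the 16 probes was 1.2, 0.31, 0.51 and 0.70 at the 4 stages, beside 0.11, -0.00, 0.07 and 0.13 for all probes above T1.

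**Figure D1:**
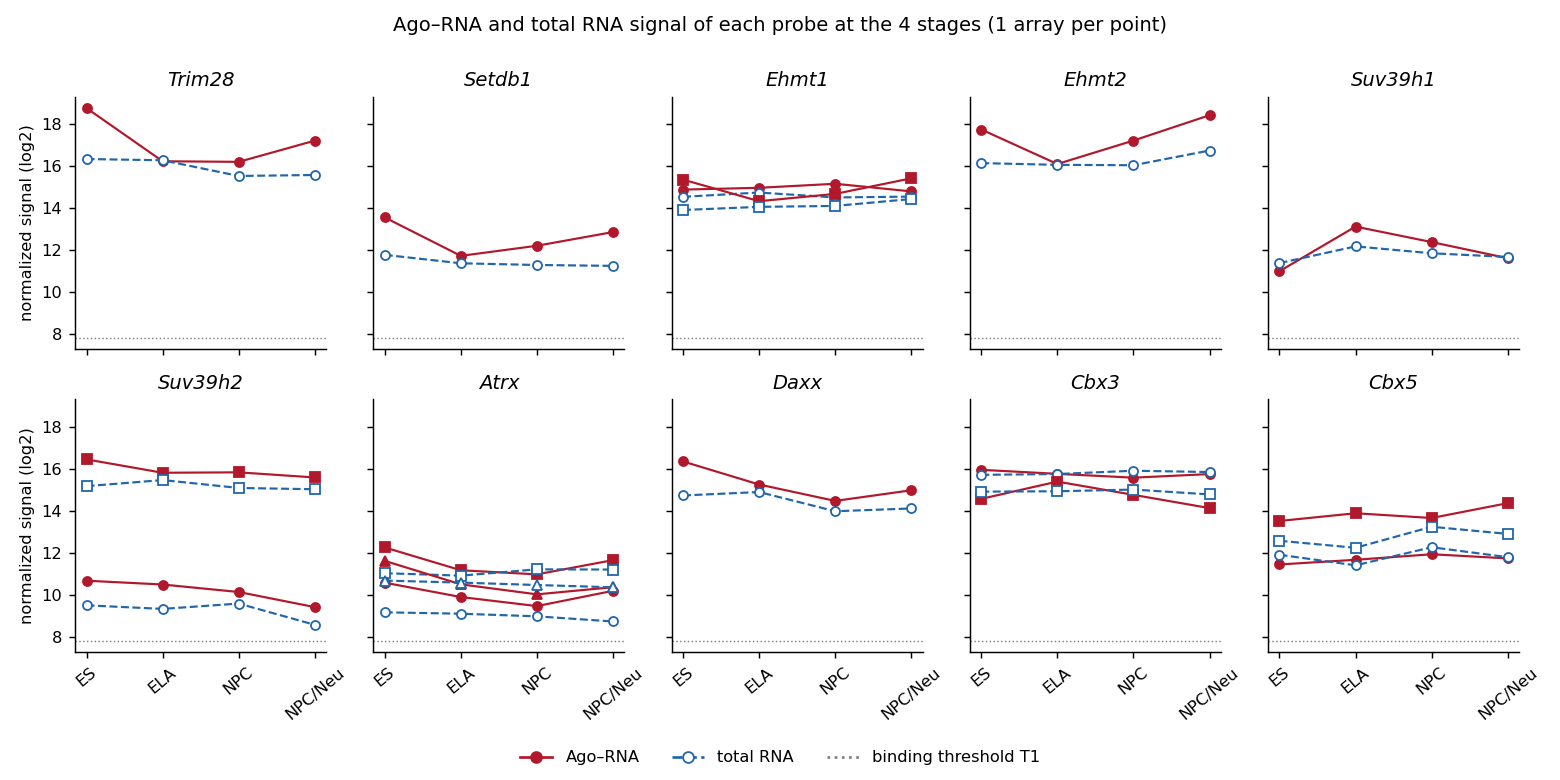
Normalized log2 signal of Ago–RNA (filled red) and total RNA (open blue) at the 4 stages, 1 panel per gene, with circles, squares and triangles for different probes of a gene and a dotted line at the binding threshold T1 of 7.82. Each point is 1 array. The red lines of Trim28, Setdb1, Ehmt2 and Daxx drop from ES to ELA, that of Trim28 with a change of -2.54, and that of Suv39h1 rises. The blue lines cover at most a range of 1.02 over the 4 stages, on a Suv39h2 probe.

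The Trim28 mRNA was measured by a probe that spans a splice junction in the coding sequence, at chr7:13615914-13616069 on the plus strand of mm9. It ends 315 bases before the end of a transcript of 3245 bases. The gene lies at chr7:13609501-13616384. The probe sequence is shown because the lowest ΔE after quantile normalization rests on it, and it had 0 near matches elsewhere in the genome (55 or more of its 60 bases).
Trim28 A_51_P323299: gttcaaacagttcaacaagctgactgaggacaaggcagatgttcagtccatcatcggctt

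Trim28 had the highest E of the 16 exon probes in ES cells and the lowest ΔE from ES to ELA after quantile normalization, though not under the 75th percentile scaling described below. Its log2 Ago–RNA signal was 18.78, 16.24, 16.21 and 17.22 from ES to NPC/Neu, while its log2 total RNA signal was 16.35, 16.29, 15.54 and 15.58. The Ago–RNA signal was thus high in ES cells and well below that at the next 2 stages, while total RNA was level from ES to ELA and somewhat lower from NPC on. The resulting E was 2.43, -0.05, 0.67 and 1.64. In ES cells the mRNA was 5.39-fold higher in Ago–RNA than in total RNA, on the normalized scale, and in ELA it was at parity, at 0.968-fold. All 4 stages were separated by more than 0.24, but the order of ES and NPC/Neu turned with one scaling, given below.

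From ES to ELA the ΔE of Trim28 was -2.48, made of an Ago–RNA signal that fell by 2.54 and total RNA that fell by 0.06. Only 13 of the 26014 probes above T1 in ES or ELA had a ΔE this low, its own included. Before normalization, the mean spot signal of Trim28 on the Ago–RNA arrays was 534057, 61727, 67572 and 110155 in the order of the stages, against 99901, 74435, 45644 and 39689 on the total RNA arrays. The ES Ago–RNA array as a whole was brighter than the ELA one, with the upper quartiles of 2536 and 922 given above, so these unnormalized values do not measure the change on their own. A release from Ago was defined as E of 2 or more in ES, 0.5 or less in ELA and a ΔE of -1.5 or less. Trim28 was the 1 probe of 16 that met it, against 0.407% of all bound probes. The size of the change depended on the scaling. When the scanner's processed signal was divided by the 75th percentile of its array, E was 1.00, -0.31, 0.56 and 1.34 along the stages. The ΔE from ES to ELA was then -1.31, so the drop stayed past 1 but the release limits were not met, E was higher in NPC/Neu than in ES, and Setdb1, with E of 1.89 in ES and a ΔE of -1.48, passed Trim28 in both values.

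The other probe with the Trim28 name, at chr7:13609067-13609124, lies on the minus strand, opposite to Trim28, and 377 bases before the start of the gene. It starts with a run of GT repeats, in capitals here.
Trim28 A_55_P1984985: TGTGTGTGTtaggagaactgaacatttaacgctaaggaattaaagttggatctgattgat
It does not report the Trim28 mRNA. It was well above background on 3 of 8 arrays and above T1 only on the NPC/Neu Ago–RNA array, where its log2 signal was 8.30 against 7.17 in total RNA, an E of 1.13. It is left out of every count over the 16 exon probes.

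Setdb1 followed Trim28, its recruiting scaffold. Its single probe lies in the 3′ UTR at chr3:95127544-95127603 on the minus strand, 97 bases from the end of the transcript. The log2 Ago–RNA signal was 13.56, 11.73, 12.21 and 12.86 from ES to NPC/Neu, and the log2 total RNA signal 11.77, 11.37, 11.29 and 11.25. Ago–RNA was highest in ES, lowest in ELA and rose at each later stage, while total RNA stayed within a range of 0.52. E was 1.78, 0.35, 0.92 and 1.61, in which ES and NPC/Neu are not separated. The ΔE was -1.43 from ES to ELA and lay between -1.48 and -1.43 under 6 other ways of handling the signals. From ELA to NPC/Neu it was 1.26.

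Ehmt2 had its lowest E in ELA. Its single probe lies at chr17:35050931-35050990 on the plus strand, in the 3′ UTR and 6 bases from the transcript's end. The log2 Ago–RNA signal was 17.76, 16.11, 17.23 and 18.44 from ES to NPC/Neu, and log2 total RNA was 16.15, 16.07, 16.05 and 16.75. ELA was the low point of Ago–RNA, and NPC/Neu the high point of both. E was 1.60, 0.04, 1.18 and 1.68, so that ES and NPC/Neu were not separated. The ΔE was -1.56 from ES to ELA and 1.14 from ELA to NPC. The first value rests on the scaling more than the second, since it was -0.55 with processed signals scaled to the 75th percentile. There E was 0.42, -0.13, 0.98 and 1.197 along the stages, which put NPC/Neu above ES and NPC short of the limit, while the rise from ELA to NPC stayed between 1.03 and 1.19.

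Ehmt1, the partner of Ehmt2, had 2 probes in the same 3′ UTR that did not tell the same story. The clean probe, at chr2:24646765-24646824 on the minus strand and 476 bases from the transcript's end, had E of 1.45, 0.27, 0.57 and 0.99, with log2 Ago–RNA of 15.36, 14.33, 14.68 and 15.43 and log2 total RNA of 13.91, 14.06, 14.11 and 14.44. All 4 stages were separated and the ΔE from ES to ELA was -1.18. The other probe, at chr2:24646395-24646454, holds a GT run of 11 bases within a longer GT-rich stretch. Its E was 0.34, 0.23, 0.65 and 0.25, with a ΔE of -0.12 from ES to ELA that changed sign between settings, from -0.15 to 0.03. The first 30 bases of both probes are shown, with the GT repeats in capitals, so that the repeat in one of them can be seen. Its part in the difference was not tested.
Ehmt1 A_55_P2149440: ccacacgctatgatgatgatgaataaactc
Ehmt1 A_55_P2045163: GTGTGTGTGTGaGTGTGTGTGactcttcta

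Suv39h1 moved against Setdb1 and Ehmt2. Its probe lies in the coding sequence at chrX:7647715-7647774 on the minus strand, and its sequence is shown because it is the 1 member called in this direction.
Suv39h1 A_55_P2071486: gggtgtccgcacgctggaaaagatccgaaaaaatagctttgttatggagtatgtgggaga
The log2 Ago–RNA signal of Suv39h1 was 10.99, 13.12, 12.38 and 11.61 along the stages, and log2 total RNA was 11.38, 12.18, 11.85 and 11.67. Both peaked in ELA, Ago–RNA more steeply. The E was -0.39, 0.94, 0.53 and -0.06, all 4 stages being separated. The ΔE of 1.33 from ES to ELA came from an Ago–RNA rise of 2.13 and a total RNA rise of 0.80, and lay between 1.33 and 1.40 under the other settings. Among bound probes, 4.86% had a ΔE this high or higher.

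The 2 probes of Suv39h2, the paralog of Suv39h1, lie far apart in its 3′ UTR and differed. The probe 2507 bases from the transcript's end, at chr2:3375594-3375653 on the minus strand, had E of 1.17, 1.16, 0.55 and 0.85, with a ΔE from ES to ELA of -0.01. Its log2 total RNA was 9.50, 9.33, 9.59 and 8.57, the last step being a change of -1.02 from NPC to NPC/Neu. The probe 99 bases from the end, at chr2:3373186-3373245, has a GT run of 13 bases in its first 30 bases, ttcgggGTGTGTGTGTcTGTGTGTGTGTGT, with the repeats in capitals. On this second probe E was 1.28, 0.35, 0.75 and 0.56 and the ΔE from ES to ELA was -0.93, or -0.32 with the 75th percentile scaling. With that scaling E in ES on this probe was 0.61, short of the limit, while the first probe stayed at 1.17 or more under all settings. Neither probe reached a ΔE of -1 as reported. With processed signals and quantile normalization the second was at -1.03.

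Daxx had a lower enrichment in ELA than in ES. Its probe lies at chr17:34052404-34052463 on the plus strand, 64 bases from the end of the longest transcript, in whose 3′ UTR it falls. The log2 Ago–RNA signal of Daxx was 16.37, 15.27, 14.48 and 14.99 at the 4 stages and log2 total RNA was 14.74, 14.91, 13.99 and 14.12. Ago–RNA fell from ES to ELA while total RNA did not, and both fell from ELA to NPC. E was 1.62, 0.36, 0.49 and 0.87, with ELA and NPC not separated. The ΔE from ES to ELA was -1.27. With the 75th percentile scaling E was 1.00, 0.19, 0.58 and 1.09, so that ΔE was -0.81, short of the limit, and NPC/Neu was level with ES.

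Atrx, the partner of Daxx, was measured by 3 probes along a transcript of 10269 bases, which gave a common direction. They lie at chrX:103079652-103079711 near the 5′ end (with 1 mismatch to the annotated transcript), at chrX:102995607-102995666 in the coding sequence and at chrX:102993644-102993703 in the 3′ UTR, all on the minus strand. In that order E in ES was 0.94, 1.41 and 1.23, E in ELA was -0.08, 0.80 and 0.26, and E in NPC was -0.45, 0.49 and -0.24. In NPC/Neu E was 0.01, 1.46 and 0.45. On all 3 probes E was lower in ELA than in ES, lower again in NPC and higher in NPC/Neu, which sets Atrx apart in form from Trim28, Setdb1 and Ehmt2, whose low point was ELA. The ΔE from ES to ELA was -1.02, -0.62 and -0.97, so that 1 of the 3 probes passed the limit. On the 3′ UTR probe it lay between -1.09 and -0.97 under the other settings, past the limit in part of them. Total RNA of Atrx changed by -0.10, -0.07 and -0.12 from ES to ELA.

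**Figure D2:**
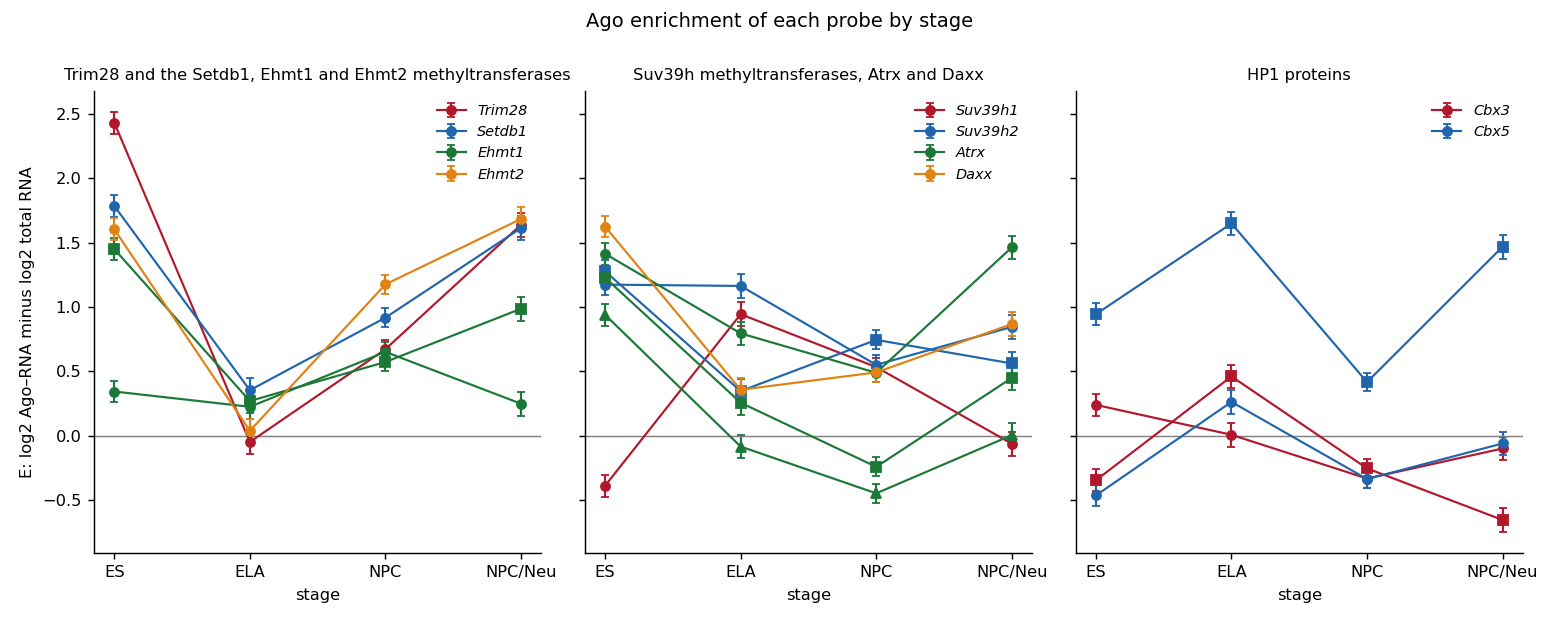
E, the log2 Ago–RNA minus log2 total RNA signal, of each exon probe at the 4 stages, with 1 color per gene, 1 marker shape per probe of a gene, and error bars of 1 spot SD (0.07 to 0.09), which cover spot-to-spot error only. Trim28, Setdb1, Ehmt2 and 1 Ehmt1 probe drop to between -0.05 and 0.35 in ELA and climb afterwards, while Suv39h1 and 1 Cbx5 probe peak in ELA. On the other Cbx5 probe ELA and NPC/Neu, at 1.65 and 1.47, are not separated.

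No probe of the HP1 genes reached an E of 1 in ES cells after joint normalization, although the second Cbx5 probe, at 0.94, was at 1.42 with Ago–RNA and total RNA arrays normalized separately. Cbx5 had 2 probes in its long 3′ UTR, at chr15:103029698-103029757 and chr15:103027779-103027838 on the minus strand, 7723 and 5804 bases from the transcript's end, the first with 2 genomic matches, its own included. The first had E of -0.46, 0.26, -0.34 and -0.06 and the second 0.94, 1.65, 0.42 and 1.47, with ΔE of 0.73 and 0.70 from ES to ELA and of -0.60 and -1.23 from ELA to NPC. The 2 probes disagreed in the level of E at each stage but not in its direction over these steps. On the second probe log2 Ago–RNA was 13.53, 13.89, 13.67 and 14.38 and log2 total RNA was 12.58, 12.25, 13.25 and 12.91. The total RNA of Cbx5 was the low value in ELA and the high value in NPC on both probes, rising by 0.86 and 1.00 between these stages.

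The Cbx3 probes cannot be assigned to Cbx3 alone. The coding probe, at chr6:51431757-51431816 on the plus strand, has 8 genomic matches of 55 or more bases, its own included, and the 3′ UTR probe, at chr6:51433585-51433644, has 24, of which 5 are exact, and is found unchanged in the annotated genes Gm10068 and Gm6984. E was -0.34, 0.46, -0.25 and -0.65 on the coding probe and 0.24, 0.01, -0.33 and -0.10 on the 3′ UTR probe. The coding probe peaked in ELA with a ΔE of 0.81 from ES, while on the other no neighboring stages were separated and the sign of its ΔE depended on the setting, from -0.37 to 0.18. Total RNA varied little, with log2 values of 14.79 to 15.02 and 15.73 to 15.92.

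Across the 16 exon probes, the step from ES to ELA was a change in Ago–RNA far more than in total RNA. Of the 16, 12 had a ΔE below 0 and 4 above 0. A ΔE of -1 or less was found for 6 probes, those of Trim28, Ehmt2, Setdb1, Daxx, 1 of Ehmt1 and 1 of Atrx, against 7.57% of the 26014 bound probes. A ΔE of 1 or more was found for 1 probe, that of Suv39h1, against 9.88%. The median ΔE of the 16 was -0.77, beside -0.01 for all bound probes. Total RNA changed by 1 or more in either direction for 0 of 16, against 10.0% of 34404 probes, and 14 of the 16 changed by less than 0.5. The lowest change was -0.50, on a Cbx5 probe, and the highest was 0.80, for Suv39h1. Ago–RNA ranged more widely, from a change of -2.54 to one of 2.13.

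**Figure D3:**
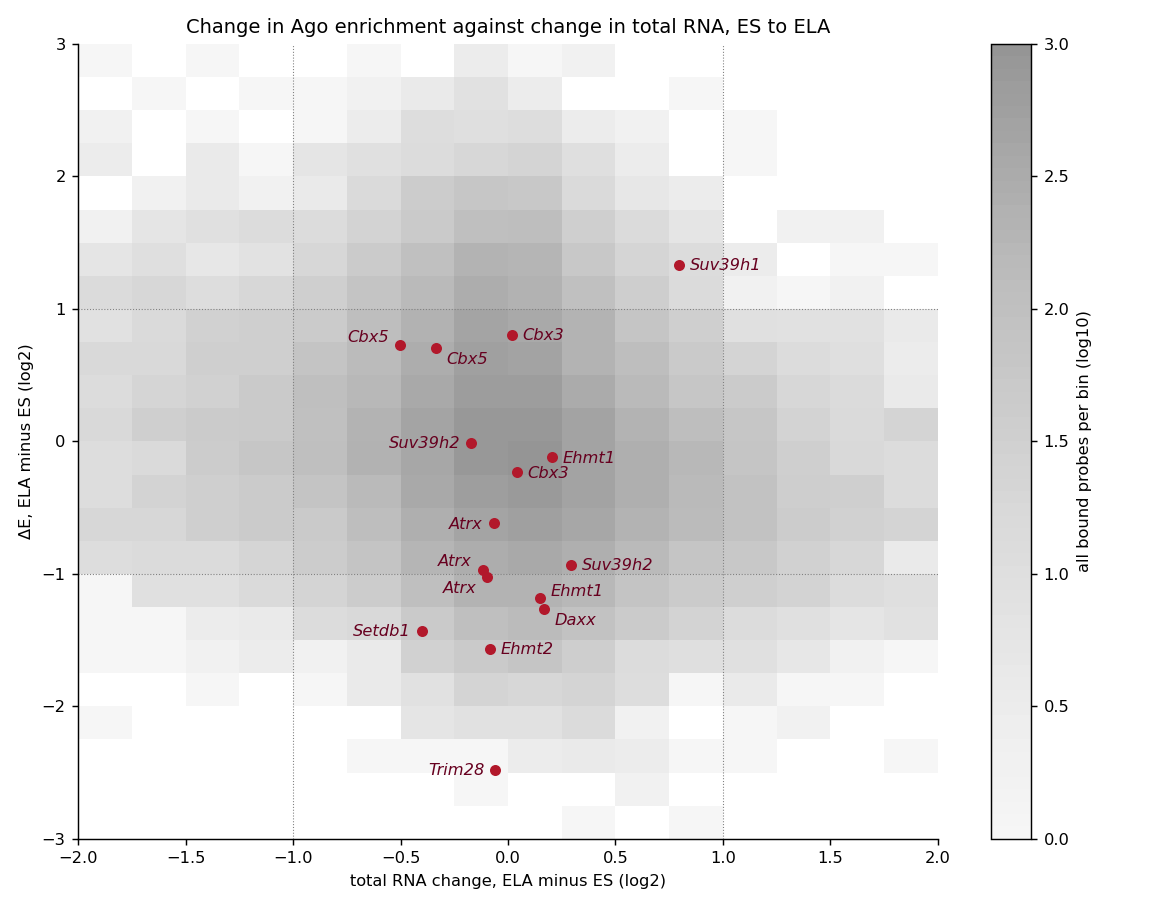
ΔE (vertical) and total RNA change (horizontal) between ES and ELA, both log2, for the 16 exon probes (red points with gene names), over all bound probes counted in bins of 0.25 by 0.25 (gray, log10 of the number of probes; bins beyond the axes are not drawn). Dotted lines mark 1 and -1 on both axes. All members lie between the lines for total RNA, from -0.50 for a Cbx5 probe to 0.80 for Suv39h1, and spread from -2.48 for Trim28 to 1.33 for Suv39h1 in ΔE.

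The handling of the signals mattered most for bright probes. Trim28, Ehmt2, 1 Suv39h2 probe and 1 Cbx3 probe had a log2 total RNA of 15 or more in ES cells. Among the 2547 bound probes of this band, the median ΔE from ES to ELA was 0.39 and 9.89% had a ΔE of -1 or less. With processed signals scaled to the 75th percentile that median was 1.01 and the share 1.22%. Under these 2 settings ΔE was -2.48 and -1.31 for Trim28 and -1.56 and -0.55 for Ehmt2. The part of brightness in these values was not tested. With the 75th percentile scaling, ΔE of the dimmer Setdb1 and Suv39h1 moved much less, to -1.48 and 1.40.

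**Figure D4:**
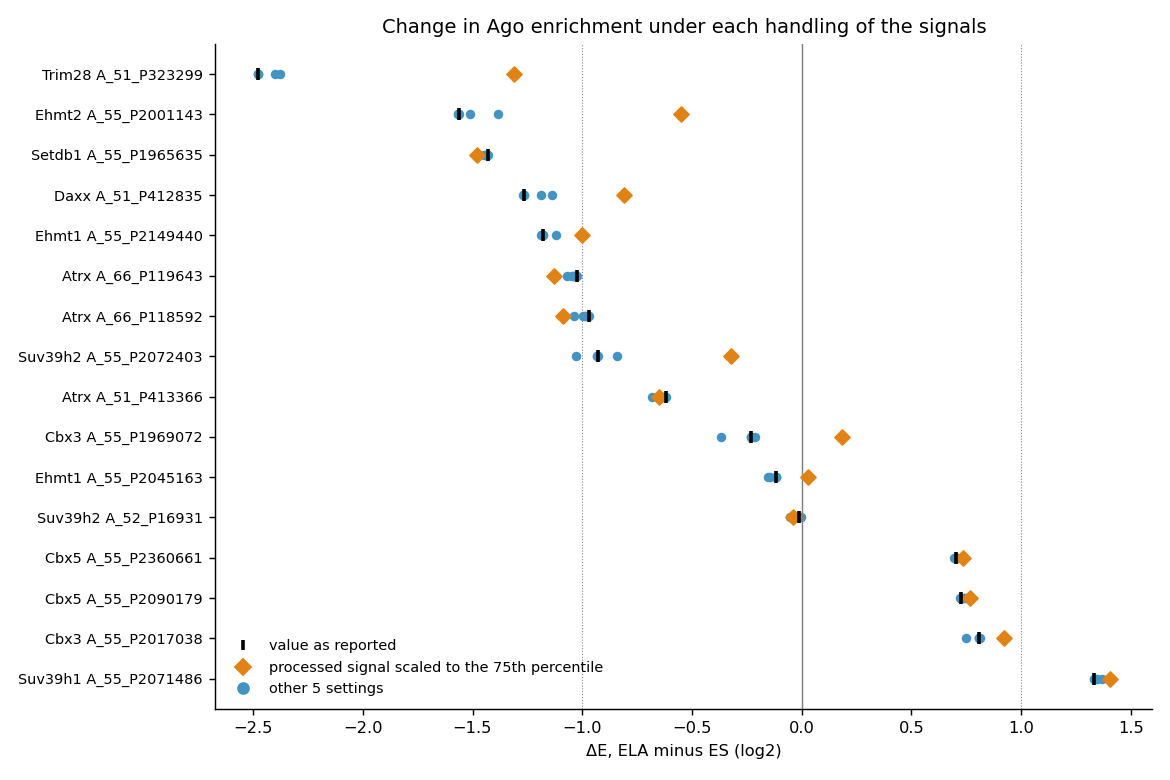
ΔE from ES to ELA of each exon probe as reported (black bars), with processed signals under the 75th percentile scaling (orange diamonds) and under 5 other settings (blue points). The diamonds of the bright probes Trim28, Ehmt2, Daxx and of 1 Suv39h2 probe lie nearer to 0, at -1.31, -0.55, -0.81 and -0.32, and only 1 Cbx3 and 1 Ehmt1 probe cross 0.

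From ELA to NPC 9 of the 16 probes had a ΔE below 0 and 7 above 0, and few passed the limit. A ΔE of -1 or less was found for 1 of 16 probes, the second Cbx5 probe at -1.23, against 4.6% of 26507 bound probes, and a ΔE of 1 or more for 1 of 16, that of Ehmt2 at 1.14, against 2.27%. The values between were 0.72 for Trim28 and 0.56 for Setdb1, both upward, and -0.41 for Suv39h1 and -0.71 for the Cbx3 coding probe, both downward. The median ΔE was -0.32, beside 0.03 for all bound probes. Total RNA changed by 1 or more for 1 of 16, the second Cbx5 probe, against 21.1% of 35074 probes. Below that limit, the total RNA change was -0.92 for Daxx and -0.75 for Trim28.

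From NPC to NPC/Neu 12 of the 16 probes had a ΔE above 0. The limit was reached upward by 1 of 16, the second Cbx5 probe at 1.05, against 3.37% of 25788 bound probes, and downward by 0 of 16, against 4.83%. Just below the limit lay Trim28 at 0.97, the Atrx probe in the coding sequence at 0.97 and Setdb1 at 0.70. The median ΔE was 0.39, beside 0.04 for all. Total RNA changed by 1 or more for 1 of 16, the Suv39h2 probe far from the transcript's end, against 10.1% of 34792 probes. Total RNA of Ehmt2 rose by 0.70, short of the limit, while that of Trim28 and Setdb1 differed from NPC by 0.05 and -0.04.

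The seed of a miRNA, its bases 2 to 8, pairs with matching sites in 3′ UTRs. The miR-290 cluster is abundant in mouse ES cells, and several of its miRNAs share one seed with miR-302b-3p of the miR-302 cluster. The study reported that members of the miR-290 cluster fell from ES to ELA and that members of the miR-302 cluster rose. The let-7 and miR-9 miRNAs belong to later, neural stages. Mature sequences from RefSeq (GRCm38.p6) are given with the seed in capitals, because the longest annotated 3′ UTR of each of the 10 genes was searched for the complement of each seed.
miR-291a-3p: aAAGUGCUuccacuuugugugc
miR-294-3p: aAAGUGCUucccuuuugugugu
miR-295-3p: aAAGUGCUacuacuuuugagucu
miR-302b-3p: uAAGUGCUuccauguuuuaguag
let-7a-5p: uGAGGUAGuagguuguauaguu
miR-9-5p: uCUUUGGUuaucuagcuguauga

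The letters AGCACTT, the match of the first 4 of these on the strand of the mRNA, occur in 13.4% of 19915 annotated 3′ UTRs. They occur once each in the 3′ UTR of Ehmt1 and of Suv39h1, shown with 30 bases of context and the match in capitals.
Ehmt1 at base 247 of 1181: ctccgtgctgcAGCACTTtccacgtctccc
Suv39h1 at base 928 of 1679: attctttagatAGCACTTaagacagtaatg
From ES to ELA the ΔE was 1.33 for Suv39h1 and -1.18 for the clean Ehmt1 probe. The other Ehmt1 probe had a ΔE of -0.12, which changed sign between settings. The 3′ UTRs of Trim28, Daxx, Ehmt2 and Setdb1 are short, at 173, 187, 231 and 548 bases, and none held a match to any of the 3 seeds. Of all 3′ UTRs within 25% of these lengths, 1.88%, 1.91%, 2.35% and 4.83% hold AGCACTT. The let-7 match, CTACCTC, found in 8.80% of 3′ UTRs, occurs 1 time in Suv39h2 and 2 times in the Cbx5 3′ UTR of 8097 bases. The miR-9 match, ACCAAAG, found in 11.4%, occurs 2 times in Cbx5. Of 3′ UTRs within 25% of the Cbx5 length, 41.4% hold the let-7 match and 49.0% the miR-9 match, and 16.1% of those near the Suv39h2 length hold the let-7 match. Of those near the Ehmt1 and Suv39h1 lengths, 12.3% and 18.5% hold AGCACTT. In Atrx and Cbx3 none of the 3 was found. A match is a run of letters and not a measured site, and matches in coding sequences were not searched.

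Transcript length went with enrichment over all genes, with a Spearman rho of 0.62 between E in ES and the length of the longest coding transcript over 12942 genes above T1, and of -0.49 between ΔE from ES to ELA and length over 13388 genes. These are correlations across genes on the same arrays, and genes are not independent replicates. The median length was 2922 bases. Trim28 with 3245 bases and Daxx with 2673 lay near that median, Ehmt2 with 4026 and Setdb1 with 4658 above it. Atrx with 10269 bases and Ehmt1 with 5107 were long, with a ΔE below 0 on all their probes (under all settings but 1 for the Ehmt1 repeat probe), and Cbx3 with 1889 bases was the shortest and had no E of 1 or more. Suv39h2 had 4327 bases. Cbx5 with 8803 bases had a ΔE above 0 on both probes, and Suv39h1 with 3116 bases had a ΔE of 1.33. The part of length in each member's value was not tested.

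Genes that work with the members were read as a further list of 29 partners in H3K9 methylation, HP1 binding, deposition of the replacement histone and retroelement silencing, of which 28 were on the array under these names, all above T1. Taking the mean over the bound probes of a gene, ΔE from ES to ELA was below 0 for 21 of 28, -1 or less for 6 and 1 or more for 2, with a median of -0.56, beside the 7.57% and 9.88% of all bound probes and their median of -0.01. The list was chosen with earlier results of these data known, and gene means are set here beside shares of single probes, so the shares are no test of the list. Total RNA changed by 1 or more for 0 of 28. The 6 were Smchd1, which helps silence the inactive X chromosome, at -1.82, Uhrf1, which brings maintenance DNA methylation to replicated DNA, at -1.56, the histone demethylase Kdm1a at -1.53, the HUSH-associated ATPase Morc2a at -1.29, the replication timing factor Rif1 at -1.21 and the chromatin assembly subunit Chaf1a at -1.13. The 2 that rose were H3f3a, which encodes the replacement histone itself, at 1.49, and the histone chaperone Asf1b at 1.40. H3f3b, which encodes the same histone, had a ΔE of 0.28, with its 3 probes between -0.02 and 0.51. Cbx1, the HP1 beta gene, had a ΔE of 0.95, the same sign as both Cbx5 probes.

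For the genes of KRAB zinc finger proteins, the class that brings TRIM28 to its targets, a list of 7 was read. ΔE from ES to ELA passed the limit for 0 of 7 in either direction, with a median of 0.10, beside the 7.57% and 9.88% of all bound probes. The lowest was Zfp568 at -0.80 and the highest Zfp932 at 0.70, whose 2 probes ranged from -0.23 to 1.62. Total RNA fell by 1 or more for 3 of 7, where 10.0% of all probes changed by that much either way. These, named after their values were seen, were Zfp57, with a log2 total RNA of 10.76 in ES and 9.08 in ELA, Zfp459 with 11.58 and 9.63, and Zfp819 with 12.68 and 9.79. Of 12 transcripts of the 2-cell stage linked to MERVL elements, a retroelement class that these repressors control, 11 were on the array, 6 had a bound probe and 7 were above background in total RNA in ES or ELA. Of the 7, 4 fell by 1 or more from ES to ELA and 0 rose, beside the same 10.0% either way. This direction was largely set by the choice of the 7. Zscan4f, Gm8300, Tcstv1 and Usp17l5 were well above background in ES and not in ELA, so they could hardly rise. In Ago–RNA ΔE was -1.26 for Zscan4c and -1.01 for Gm8300, although in ELA total RNA only 1 of 3 and 0 of 3 of their probes were well above background, so their E there has no firm value. The highest ΔE in this list was -0.23, for Dub1.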

How the data were processed

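Total RNA and Ago–RNA of 4 stages were measured on 8 one-color arrays (SurePrint G3 mouse, annotated on mm9), 1 array per condition, so that only spot error could be estimated. The authors deposited spot intensity as Feature Extraction 10.7.3.1 wrote it, not normalized between arrays. From the mean intensity of a spot and its local background, signals were corrected by normexp with an offset of 50 (limma 3.58.1, R 4.3.3). Irregular spots, 125 to 523 per array, were set to missing, quantile normalization was run across the arrays on the log2 scale and spots of a probe were averaged. Quantile normalization removes differences in overall RNA recovery. T1 was fitted with mclust 6.1.1. All 8 arrays lay on 1 slide with 1 scan day. Python 3.11.15 with pandas 2.3.3, numpy 2.4.6 and scipy 1.17.1 did the rest.

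Groups came from the labels. Probes were placed on GENCODE transcripts and the genome of the same build, and a GT run of 8 or more bases or a further near match (55 of 60 bases) was recorded. Reported as named were all members, and of the other lists the highest and lowest ΔE from ES to ELA and any gene past 1. Members and lists were chosen with earlier results of these data known. Alternatives were offsets of 16 and 0, processed intensity with quantile normalization or scaled to the 75th percentile, Ago–RNA and total RNA arrays normalized apart, restriction to probes well above background, a release limit of 1.2 in place of 0.5 and, added after seeing the data, leaving out 5 repeat or multiply matching probes. The procedure was checked on simulated arrays with known changes. These were all built from the spots of 1 array, so the check does not cover arrays of unlike brightness. Ribosome, protein and perturbation experiments were not analyzed here.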

Additional observations from a re-analysis of the deposited data

How the results depend on the processing

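Of 29 single probe values of 1 or more in size, none changed sign under the alternatives, and those of the 29 that fell short of the limit did so with processed signals scaled to the 75th percentile or with Ago–RNA and total RNA arrays normalized separately. The 75th percentile scaling shifted the median of all probes by -0.31 for E in ES and by 0.18 for ΔE from ES to ELA. For the 16 exon probes it gave a median E in ES of 0.99, 0 probes with E of 1 or more in NPC, a median ΔE from ES to ELA of -0.44, 0 released probes, 2 probes with a total RNA change of 1 or more and a median of -0.20 from ELA to NPC, and 0 probes and a median of -0.19 from NPC to NPC/Neu. Separate normalization shifted E of all probes by 0.22 to 0.26 and gave median E of 1.46, 0.70, 0.86 and 0.93 at the 4 stages, 5 probes with E of 1 or more in NPC and 0 with a total RNA change of 1 or more from NPC to NPC/Neu. Processed signals with quantile normalization gave a median E in ES of 1.30. The count of probes with a ΔE of 1 or more from NPC to NPC/Neu, 1 in the text, was 3 with that setting and 2 with offset 16, offset 0, the 75th percentile scaling and separate normalization. Without the 5 repeat or multiply matching probes, an alternative chosen after seeing the data, the 11 others had a median E of 1.41 in ES and 0.99 in NPC/Neu, and a median ΔE of -1.02 from ES to ELA and 0.51 from NPC to NPC/Neu. The remaining 145 values of these counts and medians did not move by more than the spot SD or 1.5 times. Among them was the count of probes with a ΔE of -1 or less from ES to ELA, 6 in the text. It was 8 with processed signals and quantile normalization and 5 with the 75th percentile scaling. Cause was not tested. No paired analysis was possible because each condition has 1 array. With 1 array per condition, the spot error is the only limit on precision that could be measured.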
